A study of Homo sapiens with 3 samples.

Results

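The replication-dependent histone genes supply the proteins that package newly copied DNA. Their members here were all genes on the array whose current symbol is H1-1 to H1-6 or begins with H2AC, H2BC, H3C or H4C and a number, and for which at least 1 probe set is annotated to that gene alone. This gave 45 genes of the 19775 measured in that way, with 6 of class H1, 9 of H2A, 14 of H2B, 7 of H3 and 9 of H4. No filter on low values was applied, so all 45 were kept. RefSeq records 43 as protein-coding and 2, H2AC5P and H4C10P, as pseudogenes. A further 19 genes with such symbols are seen by probe sets shared between several histone genes, and 20 more RefSeq genes of these names have no probe set named for them here.

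Core histones H2A, H2B, H3 and H4 form the spool of the nucleosome, and the linker histone H1 binds where DNA enters and leaves it. The replication-dependent genes are switched on together in S phase, and most of their mRNAs end in a stem-loop in place of a poly(A) tail, although some members also make polyadenylated transcripts. The histone genes of a class are near-copies, so short probes can read more than the gene they are named for.

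RNA came from T47D, an established human breast cancer line with receptors for estrogen and progesterone, and was hybridised to 3 Affymetrix arrays. All cells first spent 4 h in medium with 10% charcoal-stripped serum, which is low in steroids. They then received 0.1% ethanol as vehicle, estradiol (E2) at 1 µM, or ERα17p at 1 µM, a peptide copied from estrogen receptor α, and RNA was taken after 3 h. Each group had 1 array, so no difference has an error between cultures and no test was possible. Values are log2 expression relative to a baseline of each probe set that is not stated, so they show differences between arrays and no absolute level, and neither the histone genes' abundance nor the markers of the cell line could be checked. A level is compared here only between arrays for the same gene. An SD is taken over the probe sets of 1 gene, n giving their number. It covers differences between probe sets alone, and none between cultures. A gene was counted as higher or lower at a difference of at least 1.5-fold, which is 0.58 on the log2 scale.

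The vehicle array stood apart from both others. Over all genes its values had an SD of 0.37, against 0.13 for estradiol and 0.14 for ERα17p, and over the 45 histone genes these SDs were 0.32, 0.15 and 0.12. The 3 control probe sets for 18S ribosomal RNA, which like most histone mRNA has no poly(A) tail, were higher by 1.87 ± 0.34 (SD, n = 3) with estradiol and by 1.76 ± 0.39 with ERα17p than with vehicle. The 3′ less 5′ control values of ACTB were 0.52 with vehicle, −0.29 with estradiol and −0.17 with ERα17p. Those of GAPDH were 0.39, −0.10 and 0.01. The 18S values were higher on both treated arrays, as most histone genes were, and the 3′ less 5′ values were lower. The part of either in the histone differences from the vehicle given below was not tested. Both differences from the vehicle use the same vehicle array. In a single array, fewer cells in S phase and less histone RNA per cell cannot be told apart.

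The upstream sequences of 4 members are shown. H2BC4 and H4C8 had the largest differences from vehicle. H2BC13 and H4C13 were taken from the protein-coding members of the same classes with a promoter. In each, the larger of the 2 absolute differences from vehicle was the smallest of its class. With ERα17p alone other genes stood nearer, such as H2BC17 at 0.03 against −0.16 for H2BC13. H4C7 stood at 0.05 against −0.08 for H4C13. Each run is the 250 bases before the transcription start, from RefSeq on GRCh38.p14, 5′ to 3′ on the strand of the gene. Capitals mark matches to 3 motifs, searched on both strands. The first is the box with the letters CCAAT. The next, the TATA box, was searched as TATAAA. The last is the octamer known from H2B promoters, with the letters ATTTGCAT.
H2BC4, chr6:26123927-26124176, minus strand: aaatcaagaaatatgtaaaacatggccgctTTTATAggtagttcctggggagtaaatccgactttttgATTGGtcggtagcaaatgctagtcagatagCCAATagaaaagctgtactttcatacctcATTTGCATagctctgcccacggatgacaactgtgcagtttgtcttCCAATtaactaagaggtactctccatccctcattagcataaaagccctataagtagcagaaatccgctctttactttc
H2BC13, chr6:27807930-27808179, minus strand: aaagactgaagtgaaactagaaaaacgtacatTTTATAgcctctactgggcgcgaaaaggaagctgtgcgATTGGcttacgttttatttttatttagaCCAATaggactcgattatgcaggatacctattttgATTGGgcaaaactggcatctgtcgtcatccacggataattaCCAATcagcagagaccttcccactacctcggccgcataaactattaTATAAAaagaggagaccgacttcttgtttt
H4C8, chr6:26285535-26285784, minus strand: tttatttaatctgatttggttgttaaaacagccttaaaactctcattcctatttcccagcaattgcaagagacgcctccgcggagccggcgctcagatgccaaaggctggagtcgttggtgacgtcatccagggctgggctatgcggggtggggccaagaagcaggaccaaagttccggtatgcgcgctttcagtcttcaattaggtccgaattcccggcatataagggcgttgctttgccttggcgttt
H4C13, chr6:27873535-27873784, minus strand: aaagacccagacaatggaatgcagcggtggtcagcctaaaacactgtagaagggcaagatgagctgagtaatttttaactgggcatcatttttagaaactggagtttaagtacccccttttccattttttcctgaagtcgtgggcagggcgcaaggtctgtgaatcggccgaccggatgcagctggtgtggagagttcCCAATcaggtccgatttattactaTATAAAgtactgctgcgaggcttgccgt

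The H2BC4 sequence held 3 CCAAT boxes, 1 octamer and 1 TATA box on the opposite strand. That window faces H2AC6, an H2A gene read the other way, and the 300-base promoter windows of both genes share 255 bases. The H2BC13 sequence held 4 CCAAT boxes, 0 octamers and 2 TATA boxes, 1 of these on the opposite strand. H4C8 held 0 matches to all of these letters, and H4C13 held 1 CCAAT box and 1 TATA box. Only exact letters were counted, so a sequence close to a motif is not among the matches.

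Promoter windows of 300 bases, with 250 before and 50 after the start, were found for 40 of the 45 members. A CCAAT box was in 35 of the 40, against 35.6% of the 27305 promoters in the table. A TATA box was in 27 of the 40, against 12.1%. The octamer was in 10 of 13 H2B and 6 of 8 H2A windows, against 1.82% of all, and in 0 windows of the H1, H3 and H4 members. Facing H2A and H2B genes share most of their windows, so a match counted for both genes of a pair can be the same letters. Both genes were measured for 4 such pairs. The full estrogen response element, GGTCA and TGACC with 3 bases between them, was in 0 of the 40 windows and in 0.0623% of all. No test was made of these shares, and the absence of letters says nothing of the receptor beyond these windows.

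With estradiol, histone genes were mostly higher than with vehicle. The median difference over the 45 genes was 0.29, with quartiles at −0.03 and 0.46, while the median over all 19775 genes was 0.00 and its quartiles were −0.24 and 0.20. At least 1.5-fold higher were 7 of the 45 (15.6%), and 6.48% of all genes were so. At least 1.5-fold lower were 0 of the 45, against 8.42% of all genes. Above 0 lay 33 of the 45, or 73.3%, against 49.4% of all genes. Most members had a single probe set. Of these 39 members 5 (12.8%) were higher and 0 lower, against 5.17% and 11.8% of all genes with 1 probe set.

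With ERα17p the members were again mostly higher than on the shared vehicle array. Their median difference was 0.19, with quartiles at −0.05 and 0.39, against a median of 0.00 over all genes. At least 1.5-fold higher were 6 of the 45 (13.3%), against 6.88% of all genes. At least 1.5-fold lower were 0, against 8.76% of all genes. Of the 39 members with 1 probe set 4 (10.3%) were higher, against 5.61% of all such genes. Above 0 lay 33 of the 45, against 50.1% of all genes. Without the probe sets whose identifier ends in _x_at or _s_at, which are open to cross-hybridisation, 35 members were left and the median was 0.11 with ERα17p and 0.24 with estradiol.

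The vehicle array had the lowest of the 3 values for 30 of the 45 histone genes (66.7%), against 40.4% of all genes. It had the highest for 9 of the 45, against 8071 of all 19775 genes. Its value was below −0.3 for 16 of the 45 members and above 0.3 for 0. Over all 19775 genes it was below −0.3 for 2620 and above 0.3 for 3341. The members' estradiol values ran from −0.23 to 0.67, and their ERα17p values from −0.20 to 0.44. The plot of values by array shows this as a row of vehicle points on the left, with the treated points close together near the baseline.

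**Figure D1:**
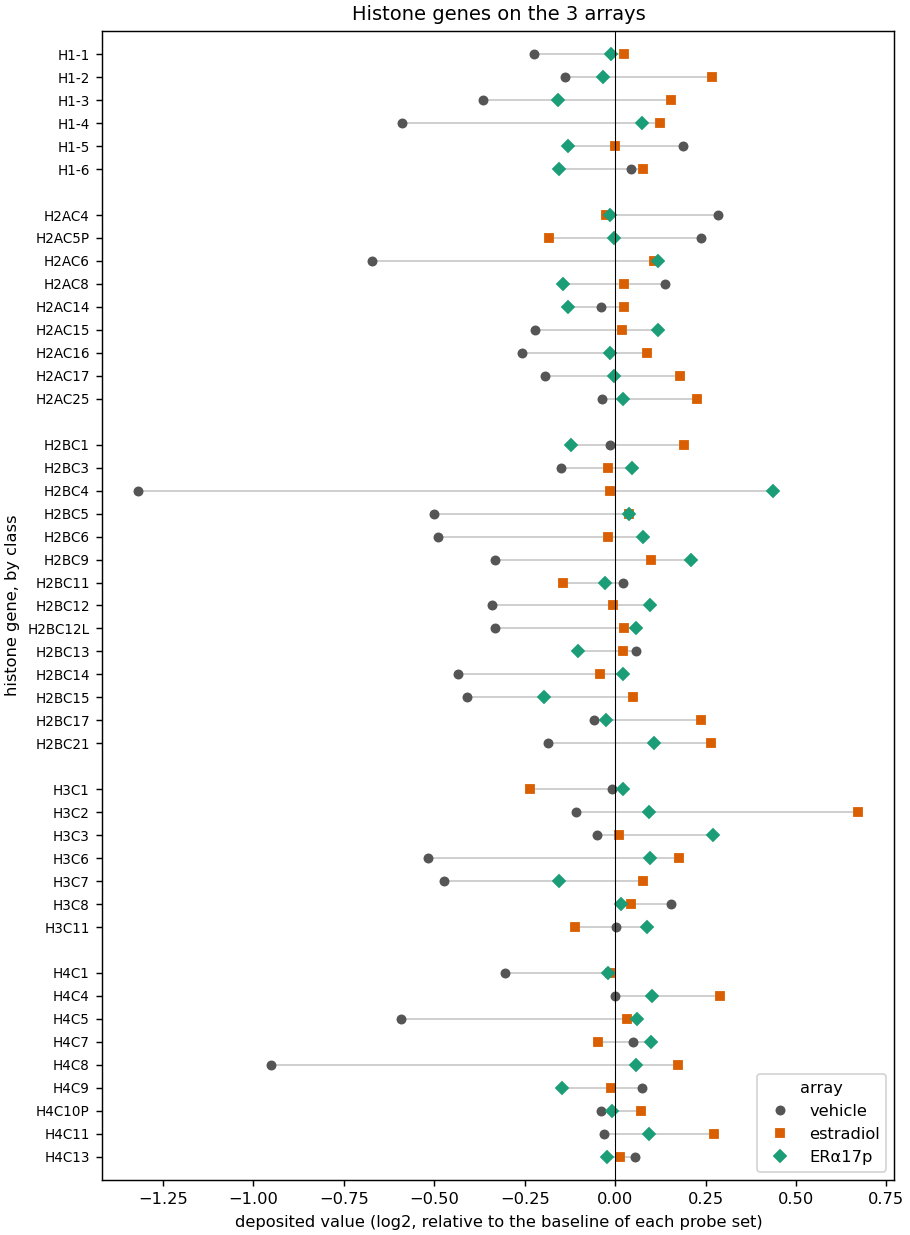
Deposited log2 value of each of the 45 histone genes (rows, grouped by class H1 to H4) on each of the 3 arrays, relative to the baseline of each probe set; a gene with 2 probe sets is drawn at their mean. Vehicle points lie lowest for 30 genes, farthest for H2BC4 at −1.32 and H4C8 at −0.95.

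H2BC4, a gene of the core histone H2B, had the largest difference of all members. Its value was −1.32 with vehicle, −0.01 with estradiol and 0.44 with ERα17p, from 1 probe set. The vehicle array was thus far below both others, and ERα17p was the highest. The difference from vehicle was 1.30 with estradiol, a 2.47-fold difference higher than that of 99.4% of all genes, and 1.75 with ERα17p, or 3.37-fold, above 99.8%. A second probe set, shared with 4 further H2B genes but designed on the H2BC4 transcript, read −1.32, −0.03 and 0.28 on the same arrays. Its differences of 1.29 and 1.60 lay close to those of the probe set named for H2BC4 alone. The other 2 probe sets annotated to the same 5 genes, designed on H2BC7 and H2BC10, read lower, at 0.44 and 0.53 with estradiol and at 0.51 and 0.78 with ERα17p.

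H4C8, a gene of the core histone H4, came next. The mean of its 2 probe sets was −0.95 with vehicle, 0.17 with estradiol and 0.06 with ERα17p. Both treated arrays lay above vehicle on both probe sets, by 1.53 and 0.72 with estradiol and by 1.16 and 0.86 with ERα17p. The mean differences were 1.13 ± 0.57 (SD, n = 2) and 1.01 ± 0.21. The larger value of each pair came from a probe set open to cross-hybridisation, and without it the gene stood at 0.72 and 0.86. Another probe set was designed on H4C8 but is annotated to 14 H4 genes. It read 0.45 with estradiol and 0.16 with ERα17p.

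Among the linker histones, H1-4 was the one member at least 1.5-fold higher in both comparisons. Its values were −0.59 with vehicle, 0.12 with estradiol and 0.07 with ERα17p, so that both treated arrays lay above vehicle by 0.71 and 0.66. H1-3 stood at 0.52 and 0.21, and H1-2 at 0.41 and 0.11. H1-1 differed by 0.25 and 0.22. H1-5 lay on the other side, at −0.19 and −0.32. The testis-type H1-6, with 2 probe sets, differed by 0.03 ± 0.21 (SD, n = 2) and −0.20 ± 0.25. The class medians were 0.33 with estradiol and 0.16 with ERα17p.

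Of the H2A genes, H2AC6 was higher by 0.78 with estradiol and 0.79 with ERα17p. It read −0.67, 0.11 and 0.12 with vehicle, estradiol and ERα17p, so the treated arrays were nearly equal. Its probe set is open to cross-hybridisation. The H2A class was otherwise mixed, with 6 of 9 genes above 0 with estradiol and 5 of 9 with ERα17p, and medians of 0.24 and 0.06. H2AC4 stood at −0.31 and −0.30, and the pseudogene H2AC5P at −0.42 and −0.24. The 2 probe sets of H2AC15 disagreed, at −0.19 and 0.67 with estradiol and at 0.07 and 0.61 with ERα17p. Those of H2AC25 disagreed in sign in both comparisons, at −0.16 and 0.69 with estradiol and at −0.22 and 0.34 with ERα17p.

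Most H2B genes were above vehicle, and H2BC4 alone passed 1.5-fold. With estradiol 12 of 14 were above 0 and with ERα17p 11 of 14, with medians of 0.37 and 0.34. H2BC5, which has 2 probe sets, was at 0.54 ± 0.04 (SD, n = 2) and 0.54 ± 0.03. H2BC6 was at 0.47 and 0.57, and H2BC9 at 0.43 and 0.54. All probe sets of these genes, and that of H2BC12L, are open to cross-hybridisation, and whether they read the same RNA was not tested. On the other side lay H2BC11, at −0.17 and −0.05, and H2BC13, at −0.03 and −0.16. The testis-type gene H2BC1 differed by 0.20 with estradiol and −0.11 with ERα17p. H2BC12L, a gene of this name on chromosome 21, stood at 0.36 and 0.39.

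The H3 genes were spread widely. H3C2 read −0.11 with vehicle, 0.67 with estradiol and 0.09 with ERα17p, so estradiol stood alone and the differences from vehicle were 0.78 and 0.20. Its single probe set is open to cross-hybridisation, and the gene drops out when such sets are left out. H3C6 was higher by 0.69 ± 0.19 (SD, n = 2) and 0.61 ± 0.50, and its 2 probe sets gave 0.26 and 0.96 with ERα17p. H3C7 stood at 0.55 and 0.32. H3C1, H3C8 and H3C11 lay between −0.22 and −0.11 with estradiol and between −0.14 and 0.09 with ERα17p. H3C3 was at 0.06 and 0.32. Above 0 were 4 of 7 H3 genes with estradiol and 6 of 7 with ERα17p, and the class medians were 0.06 and 0.20.

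Among the H4 genes, which with few exceptions encode the same protein, H4C5 joined H4C8 above 1.5-fold. H4C5 read −0.59, 0.03 and 0.06 with vehicle, estradiol and ERα17p, with differences of 0.63 and 0.65. H4C1 was at 0.29 and 0.28, H4C4 at 0.29 and 0.10 and H4C11 at 0.30 and 0.12. The probe set of H4C11 is open to cross-hybridisation and was designed on H4C12. H4C7, H4C9 and H4C13 lay between −0.10 and −0.04 with estradiol and between −0.22 and 0.05 with ERα17p. The pseudogene H4C10P was at 0.11 and 0.03. The class medians were 0.29 and 0.10.

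**Figure D2:**
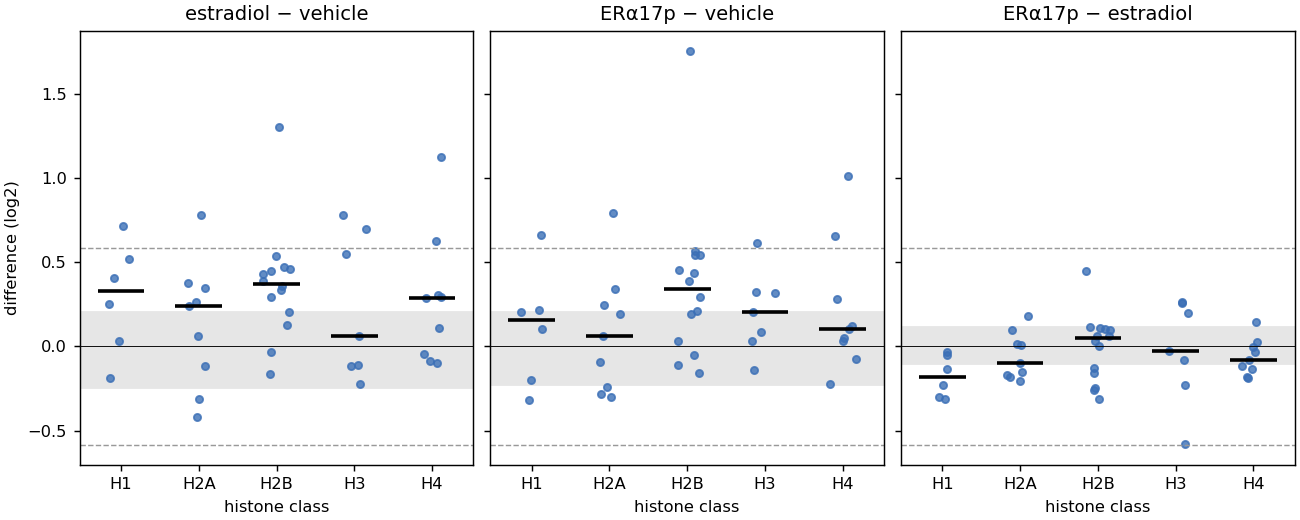
Difference (log2) of each histone gene by class, with panels for estradiol against vehicle, ERα17p against vehicle, and ERα17p against estradiol. Bars are class medians, the grey band runs from the lower to the upper quartile of all 19775 genes, and dashed lines mark 1.5-fold. The H2B medians of 0.37 and 0.34 lie above the band in both panels against vehicle. Those of H1, H2A and H4, at 0.33, 0.24 and 0.29, lie above it with estradiol only. Between the treated arrays every point lies inside the dashed lines.

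Between the treated arrays no histone gene reached the threshold. For ERα17p minus estradiol, 0 of the 45 members reached 1.5-fold in the higher direction and 0 in the lower one. The shares of all genes were 0.521% and 0.607%, so these counts are near the background. The median was −0.05 over the members and 0.01 over all genes. Above 0 lay 18 of the 45 members, or 40.0%, against 51.6% of all genes. H2BC4 had the largest positive difference, at 0.45, above 98.4% of all genes, and the shared probe set designed on it gave 0.31. H3C2, on its cross-hybridising probe set, had the largest negative one, at −0.58, with 0.67% of all genes below it. H4C8 was at −0.12 ± 0.36 (SD, n = 2), with −0.37 and 0.14 on its 2 probe sets, which differ in sign.

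All 6 linker histone genes were lower with ERα17p than with estradiol, from −0.31 for H1-3 to −0.03 for H1-1, with a median of −0.18. H1-2 stood at −0.30. Of the H4 genes 7 of 9 were below 0, with a median of −0.08. The H2B genes had a median of 0.05 and 9 of 14 were above 0, among them H2BC9 at 0.11 and H2BC6 at 0.10, while H2BC1 was at −0.31 and H2BC17 at −0.26. With 1 array on each side no error can be put on these differences. At 1.2-fold 1 member was higher and 4 were lower, against 7.60% and 6.57% of all genes.

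The members sit mainly on chromosome 6, with 42 of the 45, and 2 lie on chromosome 1. In the RefSeq order the chromosome 6 genes form 3 stretches, split where neighbours of these names lie more than 500 kb apart, a division chosen after the values were seen. The first stretch, from H2BC1 to H4C8, holds 26 measured members and all 7 of the genes at least 1.5-fold higher with estradiol and all 6 with ERα17p. Its medians were 0.35 and 0.21. The 3 members of the middle stretch, H2BC11, H2BC12 and H4C9, had medians of −0.08 and −0.05. The 13 members of the last stretch, from H4C10P to H2BC17, had medians of 0.24 and 0.09, and 9 of the 13 were above 0 in each comparison. Whether the stretches differ was not tested.

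Neighbours within the first stretch were not all alike. From H2BC4 through H2AC6, H1-4 and H2BC5 to H2BC6, consecutive measured genes stood at 1.30, 0.78, 0.71, 0.54 and 0.47 with estradiol and at 1.75, 0.79, 0.66, 0.54 and 0.57 with ERα17p. H3C8, which lies just before H4C8 among the measured genes, was at −0.11 and −0.14. On chromosome 1, H2BC21 differed by 0.45 and 0.29, on a probe set open to cross-hybridisation. H2AC25 differed by 0.26 and 0.06, the means of 2 probe sets that differ in sign.

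**Figure D3:**
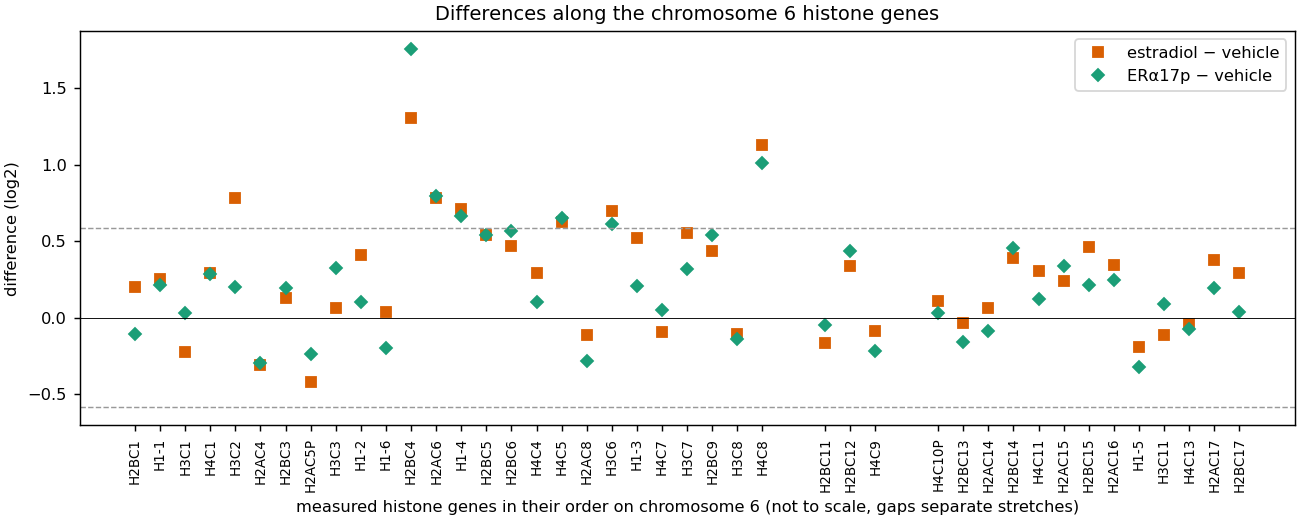
Difference (log2) from vehicle with estradiol (squares) and ERα17p (diamonds) for the 42 measured histone genes of chromosome 6 in their RefSeq order, not to scale, with gaps between the 3 stretches and dashed lines at 1.5-fold. The genes past 1.5-fold all lie in the first stretch of 26, where H2BC4 and H4C8 stand highest.

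RefSeq gives 11 facing pairs of an H2A and an H2B gene whose promoter windows overlap on opposite strands, and both genes were measured for 4 of them. In the pair H2AC6 and H2BC4 both were high, at 0.78 and 1.30 with estradiol and at 0.79 and 1.75 with ERα17p. H2AC15 and H2BC15 stood at 0.24 and 0.46 with estradiol, and at 0.34 and 0.21 with ERα17p. H2AC17 and H2BC17 were at 0.37 and 0.29, then at 0.19 and 0.03. H2AC14 and H2BC14 were apart, at 0.06 and 0.39 with estradiol and at −0.09 and 0.46 with ERα17p. In 3 of the 4 pairs both genes were above 0 in both comparisons, which share the vehicle array. For H2AC15 this holds for the mean of 2 probe sets that disagree, at −0.19 and 0.67 with estradiol. The probe set of H2AC6 is open to cross-hybridisation. Singly, 30 of the 45 members (66.7%) had vehicle as the lowest of the 3 values, against 40.4% of all genes. Whether facing genes move together was not tested.

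Probe sets shared by several histone genes, which were left out of the values above, gave a second reading of the same classes. There were 20, and their median difference was 0.39 with estradiol and 0.28 with ERα17p, with 5 at least 1.5-fold higher in each comparison and 0 lower. Over all 54613 probe sets, 9.07% were that much higher with estradiol and 8.92% with ERα17p, and 9.78% and 10.2% that much lower. All 5 shared H2B probe sets were above 0 in both comparisons, from 0.30 to 1.29 and from 0.24 to 1.60. The 6 shared H4 probe sets ran from 0.07 to 0.60 with estradiol and from −0.01 to 0.61 with ERα17p. The 5 shared H2A probe sets were mixed, from −0.16 to 0.39 and from −0.44 to 0.40. Of the 2 probe sets annotated to 10 H3 genes, 1 stood at 0.60 and 0.38, and the other at −0.38 with estradiol and 0.32 with ERα17p. The lowest shared set with estradiol, annotated to 11 H2A and H3 genes, was at −0.53 and −0.21. Between the treated arrays the second of the H3 sets differed by 0.70, ERα17p being higher, and a set for H4C6 and H4C7 by −0.60. Shared probe sets cannot say which gene gave the signal.

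**Figure D4:**
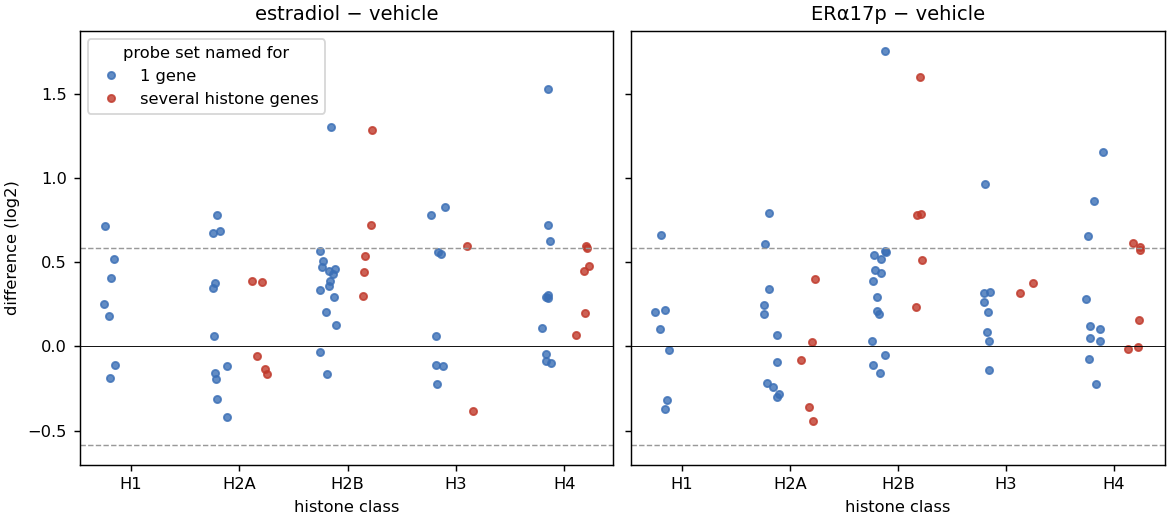
Difference (log2) from vehicle of single probe sets by histone class, named for 1 gene (blue) or for several histone genes of that class (red), with dashed lines at 1.5-fold. Shared H2B sets all lie above 0, the highest at 1.29 with estradiol and 1.60 with ERα17p, beside the single-gene set of H2BC4, and shared H2A sets lie on both sides of 0.

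Genes that make, process or degrade histone mRNA were listed with 21 members. Of these 20 were measured, 12 of them above 0 with estradiol and 11 with ERα17p, with medians of 0.16 and 0.13, and 3 were at least 1.5-fold higher and 2 lower with estradiol, 2 and 2 with ERα17p. CCNE2, the cyclin E2 that drives entry into S phase, was at 1.12 ± 1.70 (SD, n = 2) and 1.15 ± 1.47. SYMPK, a scaffold of 3′ end processing, stood at −0.65 ± 0.48 (SD, n = 4) and −0.73 ± 0.55. ZNF473, a zinc finger protein of the histone 3′ end complex, was at −0.59 ± 0.07 (SD, n = 2) and −0.70 ± 0.30. NCBP1, which binds the mRNA cap, was at 0.64 ± 0.48 (SD, n = 2) and 0.37 ± 0.02. The remaining gene past 1.5-fold, named after its values were seen, was SLBP, the protein that binds the stem-loop of histone mRNA. It differed by 0.62 with estradiol and 0.59 with ERα17p on 1 probe set, the latter at the threshold itself.

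Histone chaperones, which carry histones to DNA, had medians of −0.05 and −0.02 over all 19 listed genes, with 2 higher and 4 lower in each comparison. ASF1A, a chaperone of H3 and H4, was at 0.83 ± 0.30 (SD, n = 2) and 1.02 ± 0.01, and the chromatin remodeller ATRX at 1.17 ± 0.63 (SD, n = 4) and 1.15 ± 0.39. IPO4, an importin, stood at −1.23 and −0.91. DAXX, a chaperone of the replacement histone H3.3, was at −0.83 ± 0.35 (SD, n = 2) and −0.75 ± 0.53. The other lower genes, named after their values were seen, were ASF1B at −0.77 and −0.80 and CABIN1 at −0.73 ± 0.08 (SD, n = 2) and −0.64 ± 0.44.

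Replacement histones, which are made outside S phase as well, had medians of 0.13 and 0.12 over 12 measured of 19 listed. With estradiol 2 were higher and 1 lower, and with ERα17p 1 and 2. CENPA, the centromere H3, was higher by 1.95 and 1.90, and this gene is in the list of G2 and mitosis genes as well. The linker variant H1-10 stood at −1.04 and −1.27. H3-3A, a gene of H3.3, was at 0.70 with estradiol and 0.06 with ERα17p, and H2AJ at −0.46 ± 0.14 (SD, n = 4) and −0.61 ± 0.12.

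The cell cycle lists lay on opposite sides of the vehicle. Genes of the G1 to S transition and DNA replication, the phase in which histone genes are normally used, had medians of −0.22 and −0.22 over 29 of 30 listed, with 1 higher and 7 lower with estradiol and 1 and 8 with ERα17p. The higher one was CCNE2, which is in the histone mRNA list as well. ORC1, of the origin recognition complex, stood at −1.20 and −1.24, and the licensing factor CDT1 at −1.15 ± 0.02 (SD, n = 2) and −1.22 ± 0.34. MCM7, a helicase subunit, was at −1.04 ± 0.33 (SD, n = 2) and −1.16 ± 0.35. G2 and mitosis genes had medians of 0.66 and 0.63 over 24, with 15 and 13 higher and 0 lower. ASPM, a spindle protein, was at 2.17 ± 0.75 (SD, n = 3) and 2.12 ± 0.80. The histone genes' medians of 0.29 and 0.19 lay between these lists, and the lists were not tested against each other.

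**Figure D5:**
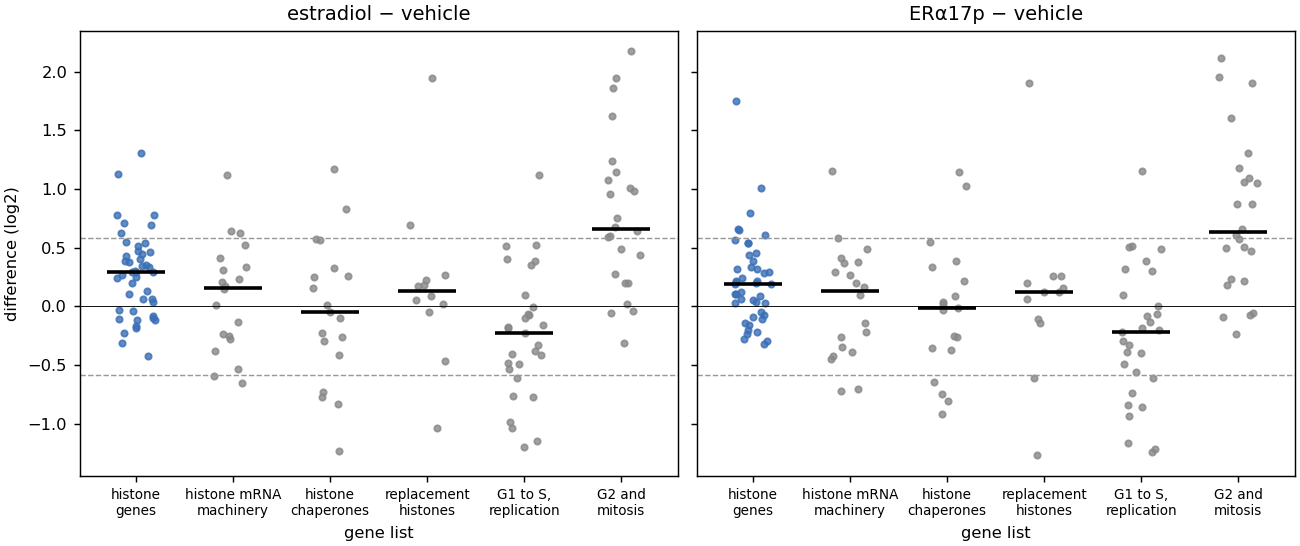
Difference (log2) from vehicle of each gene in the histone set (blue) and in 5 related lists (grey), with estradiol on the left and ERα17p on the right; bars are medians and dashed lines mark 1.5-fold. The histone medians of 0.29 and 0.19 lie below those of G2 and mitosis genes, 0.66 and 0.63, and above those of G1 to S genes, −0.22 in both.

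Markers of cells other than luminal breast cells could be measured for 10 of 12 genes, and no level can be given for them on these values. With estradiol 1 was at least 1.5-fold higher and 1 lower, LUM, a proteoglycan of stroma, at 1.05 ± 0.97 (SD, n = 2) and COL1A1, a fibrillar collagen, at −0.63 ± 0.66 (SD, n = 5). With ERα17p LUM was higher, at 1.43 ± 1.53, and COL1A1 was at −0.44 ± 0.64. Of the luminal markers 11 of 12 were measured, and in each comparison 1 was higher and 2 lower. PGR, the progesterone receptor, was at 1.44 ± 0.28 (SD, n = 2) and 0.89 ± 0.04, and the trefoil factors TFF1 and TFF3 were at −2.19 and −1.84 with estradiol and −2.92 and −1.66 with ERα17p. The part of these markers in the histone values was not tested.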

How the data were processed

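Total RNA of 3 T47D samples (vehicle, estradiol and ERα17p, 1 array each, grouped by their labels) was measured on Affymetrix arrays of 54675 probe sets. The deposited values came from RMA, as per the submitters' processing notes. Its version, the log base, the centring and the baseline are not given in the sources, so the deposited values were taken as log2 because RMA gives that. Whether labelling was primed on poly(A), which bears on histone mRNA, is likewise not given. Of these, 62 control probe sets were left out, and 41091 with exactly 1 annotated gene were kept. A gene's value is the mean over its probe sets. Differences between arrays were computed for 19775 genes with Python 3.11.15, numpy 2.4.6 and pandas 2.3.3. The calculation alone was checked, on simulated data with known differences and little noise. No significance test was run. The number of arrays limits the precision. All 45 symbols matched RefSeq GRCh38.p14, 40 with a promoter.

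The members, lists and comparisons were chosen with earlier results of these data known. Any member could be named, and of each of the 7 lists the up to 4 genes with the largest absolute difference from vehicle. Alternatives were the median over probe sets, single or shared probe sets, probe sets ending in _x_at or _s_at left out, centring, the mean over members, and thresholds of 1.2-fold and 2-fold. Protein-coding members alone were added after the data were seen.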

Additional observations from a re-analysis of the deposited data

How the results depend on the processing

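The count of histone genes past the threshold depended on the threshold. At 1.2-fold it was 25 of 45 with estradiol, 17 with ERα17p and 1 for ERα17p minus estradiol (H2BC4). At 2-fold it was 2 in each comparison with vehicle. At 1.2-fold 20.1% and 20.4% of all genes were higher with estradiol and ERα17p, and at 2-fold 1.57% and 1.90%. For ERα17p minus estradiol 7.60% of all genes were higher at 1.2-fold. The medians against vehicle ran from 0.24 to 0.30 with estradiol and from 0.11 to 0.22 with ERα17p over the alternatives run, and no sign turned. For ERα17p minus estradiol the median ran from −0.06 to −0.03. Leaving out probe sets open to cross-hybridisation removed 10 members with no other probe set. Of the 35 left, 5 (14.3%) were at least 1.5-fold higher in each comparison with vehicle. Under the same filter 5.99% of all genes were so with estradiol and 6.45% with ERα17p. H2AC6 dropped out of both comparisons and H3C2 out of that with estradiol. H4C8 then stood at 0.72 and 0.86. A change was called small when under 0.1 on the log2 scale. No paired analysis was possible because each group has 1 array. Signal over background is unknown, since no absolute level was kept.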
